A study of Mus musculus with 16 samples.

Results

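The CpGs described here were methylated in one culture of mouse embryonic fibroblasts and less methylated in a second culture from a sibling embryo. They are the 28714 CpGs, of 1203687 in the table of the series, that had at least 20 reads in both parental libraries, a level of 90% or more in the MEF-1 parental library and a level under 60% in the MEF-2 parental library. A methylation level is the percentage of reads over a CpG that were called methylated. The members were therefore chosen by their measured parental levels, so the parental values below are a description and no test is given on them. Of the 1062454 CpGs with enough parental reads, 310104 were at 90% or more in the MEF-1 parent, and the selected CpGs are 9.26% of these.

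The study asked how faithfully methylation is passed on when a single cell grows into a population. MEF-1 and MEF-2 are fibroblast cultures from sibling C57BL/6J embryos at E13.5 of gestation, immortalised by serial passaging through crisis, MEF-1 from a male and MEF-2 from a female embryo. Each was sequenced once as a parental population, and 7 cells of each were sorted singly and grown into clonal lines, so the libraries are 2 parental and 14 clonal. DNA was captured with probes for chosen regions, bisulfite converted and sequenced, which leaves out most of the genome. No treatment or engineered change separates the groups, but the study's methods describe aneuploidy in some of the lines, for chromosomes that are left out of the table. Sex, embryo, karyotype, culture history and the cells that survived crisis cannot be told apart as sources of a difference between the families, a family being a parental line with its clones. No marker of the cell type can be read from methylation counts, and the fibroblast label was not tested here.

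In mammals, methylation of cytosine in CpG dinucleotides is copied to the new strand after replication by Dnmt1 with Uhrf1, placed anew by Dnmt3 enzymes and removed through oxidation by Tet enzymes. Methylation of a CpG-rich promoter goes with silence of its gene, whereas gene bodies are commonly methylated. Within 1 diploid cell a CpG can be methylated on no, one or both alleles, so an intermediate level in a population can be a mixture of cells or of alleles, which counts per CpG cannot separate.

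The sequences of 6 runs of adjacent selected CpGs are shown as examples, some fully split between the families and one, near Mblac1, intermediate in MEF-2. They are read 5′ to 3′ from the plus strand of GRCm38 (mm10), and capitals mark the selected CpGs. Each stretch runs 5 bases past its outer CpGs.
Zic4 coding exon, run of 12, chr9:91379133-91379320: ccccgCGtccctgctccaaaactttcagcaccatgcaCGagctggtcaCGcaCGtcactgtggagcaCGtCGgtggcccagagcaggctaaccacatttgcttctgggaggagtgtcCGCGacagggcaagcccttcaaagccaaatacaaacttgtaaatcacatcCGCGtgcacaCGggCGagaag
Zic4 coding exon, run of 9, chr9:91378840-91378978: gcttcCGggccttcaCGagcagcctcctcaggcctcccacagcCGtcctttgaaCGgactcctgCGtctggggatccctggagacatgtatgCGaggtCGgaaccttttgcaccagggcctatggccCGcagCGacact
Ahi1 intron, run of 12, chr10:20954415-20954509: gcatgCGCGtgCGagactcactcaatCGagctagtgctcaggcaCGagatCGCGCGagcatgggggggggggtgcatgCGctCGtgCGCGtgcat
Reep3 intron, run of 9, chr10:67083699-67083968: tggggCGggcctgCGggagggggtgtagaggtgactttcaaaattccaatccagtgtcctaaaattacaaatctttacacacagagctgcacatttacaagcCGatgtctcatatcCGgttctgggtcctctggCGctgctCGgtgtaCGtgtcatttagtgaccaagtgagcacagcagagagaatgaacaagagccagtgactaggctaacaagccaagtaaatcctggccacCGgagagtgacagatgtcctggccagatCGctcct
Mblac1 promoter, run of 7, chr5:138193957-138194025: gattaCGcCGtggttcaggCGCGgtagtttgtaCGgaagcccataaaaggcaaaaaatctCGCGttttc
Runx1 promoter and intron, run of 6, chr16:92698305-92698395: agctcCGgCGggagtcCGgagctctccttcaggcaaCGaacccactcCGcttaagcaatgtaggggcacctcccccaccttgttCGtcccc

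The first Zic4 stretch held 13 CpGs, of which 12 were selected, and in the other 5 stretches every CpG was selected. The Runx1 stretch is outside the 12 runs described below and was picked after its values were seen, because a CpG just beyond it separated the families completely.

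The MEF-1 clonal lines kept most of these CpGs methylated. Their mean level over the 28714 CpGs was 94.3% ± 1.29 (SD, n = 7), against 95.9% in the MEF-1 parental library. Lines 1 to 7 had mean levels of 95.7, 93.2, 93.4, 95.6, 95.8, 93.1 and 93.6%. Lines 1, 4 and 5 were the highest, and the other 4 lines lay close together below them. On average 86.4% ± 2.75 (SD, n = 7) of the CpGs were at 90% or more in a MEF-1 line, with a range of 82.9 to 90%. The like share was 93.8% ± 0.975 over all CpGs at 90% or more in the MEF-1 parent. It was 96.2% ± 0.428 over those at 90% or more in both parents, so the selected CpGs had the lowest of the 3. The MEF-1 parental means of those other sets were 97.3 and 97.7%, above that of the selected CpGs. These shares are thus not like for like. All 7 lines were at 90% or more at 15554 CpGs (54.2%).

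The MEF-2 clonal lines did not settle into one state at the same CpGs. Their mean level was 44.5% ± 1.15 (SD, n = 7), against 41.8% in the MEF-2 parental library. Lines 1 to 7 had mean levels of 45.4, 44.9, 42.1, 44.8, 45.5, 44.8 and 44.2%, line 3 being the lowest. On average 16.7% ± 0.483 of the CpGs were under 10%, 20.3% ± 2.79 at 10 to 40%, 37.3% ± 2.53 at 40 to 60%, 17.7% ± 1.78 at 60 to 90% and 7.98% ± 2.12 at 90% or more (SD, n = 7). The parental library, bounded by the rule, had 5.21% of the CpGs under 10%, 29.4% at 10 to 40% and 65.4% at 40 to 60%. The clonal lines thus had more CpGs under 10% than their parent, and also CpGs above the 60% that bounded the parent. The 17699 CpGs of the opposite kind, at 90% or more in the MEF-2 parent and under 60% in the MEF-1 parent, had a like picture with the families exchanged. There the MEF-1 lines had 10.4% under 10%, 18.4% at 10 to 40%, 40.9% at 40 to 60%, 24.6% at 60 to 90% and 5.70% at 90% or more, and the MEF-2 lines had 84.5% at 90% or more.

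**Figure D1:**
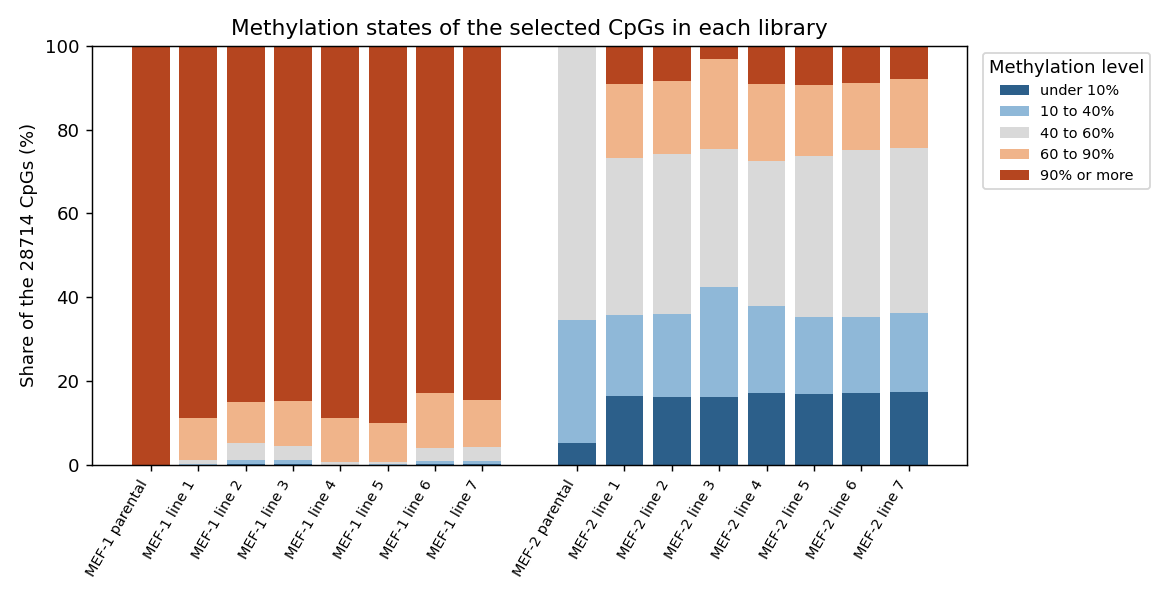
Stacked bars give, for each of the 16 libraries, the share of the 28714 selected CpGs (%) in each of 5 ranges of methylation level. The parental bars are set by the rule; MEF-1 lines stay mostly at 90% or more, whereas MEF-2 lines spread over all ranges, line 3 having the fewest CpGs at 90% or more (3.31%).

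Whether the families differed in their clones was tested with the clonal reads, which the rule did not use, in a quasi-binomial model per CpG over all 1203687 CpGs with Benjamini-Hochberg adjustment. Of the 28714 CpGs, 25749 (89.7%) were called higher in the MEF-1 clonal lines at an adjusted p under 0.05, beside a background of 11.6% of all CpGs in the table. None was called higher in the MEF-2 lines by this model (background 8.53%), and limma on log2 ratios called 0.00348% in that direction. At an unadjusted p under 0.05, 27399 CpGs (95.4%) differed, 3 of them with the higher clonal mean in MEF-2. No background share was computed at this unadjusted threshold. By adjusted p, 2965 of the selected CpGs were not called. They had a median difference of 23 points and a median SD over MEF-2 lines of 21.5 points, which was 18 points at the called CpGs, so a p that misses the threshold does not show equal levels there. All 7 MEF-1 lines lay above all 7 MEF-2 lines at 16629 CpGs (57.9%, background 5.19%).

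The difference of clonal means, MEF-1 minus MEF-2, had a median of 46.3 points over the selected CpGs, with 20.5 points at the 5th and 88.7 points at the 95th percentile. Over the whole table the median was 0.621 points. At 15584 CpGs (54.3%) the difference was 20 to 50 points, at 8421 (29.3%) it was 50 to 80 points and at 3347 (11.7%) it was 80 points or more. At 94 CpGs (0.327%) the MEF-2 clonal mean was the higher one, by up to 28.4 points, none of them called. The model takes the lines of a family as independent, although their levels were correlated to unequal degrees.

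Averaged over many CpGs, the MEF-2 clonal level followed the MEF-2 parental level, whereas levels at single CpGs were spread. In the 1495 CpGs with a parental level under 10%, the MEF-2 lines had a mean of 8.49% ± 0.493, and 78.9% ± 1.28 of levels were under 10% (SD, n = 7). In the 3655 CpGs at 30 to 40%, the mean was 39.4% ± 1.36, and the levels were spread with 16.8% under 10%, 30.1% at 10 to 40%, 34.1% at 40 to 60%, 14.5% at 60 to 90% and 4.58% at 90% or more. In the 12048 CpGs at 50 to 60%, the mean was 56.9% ± 1.18, with 46.1% ± 2.93 of levels at 40 to 60% and 12.7% ± 3.17 at 90% or more. MEF-1 lines stayed at 93.5 to 95.0% in all 6 bins of 10 points. The share of CpGs called higher in MEF-1 fell from 99.6% in the lowest bin to 84.8% in the highest.

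**Figure D2:**
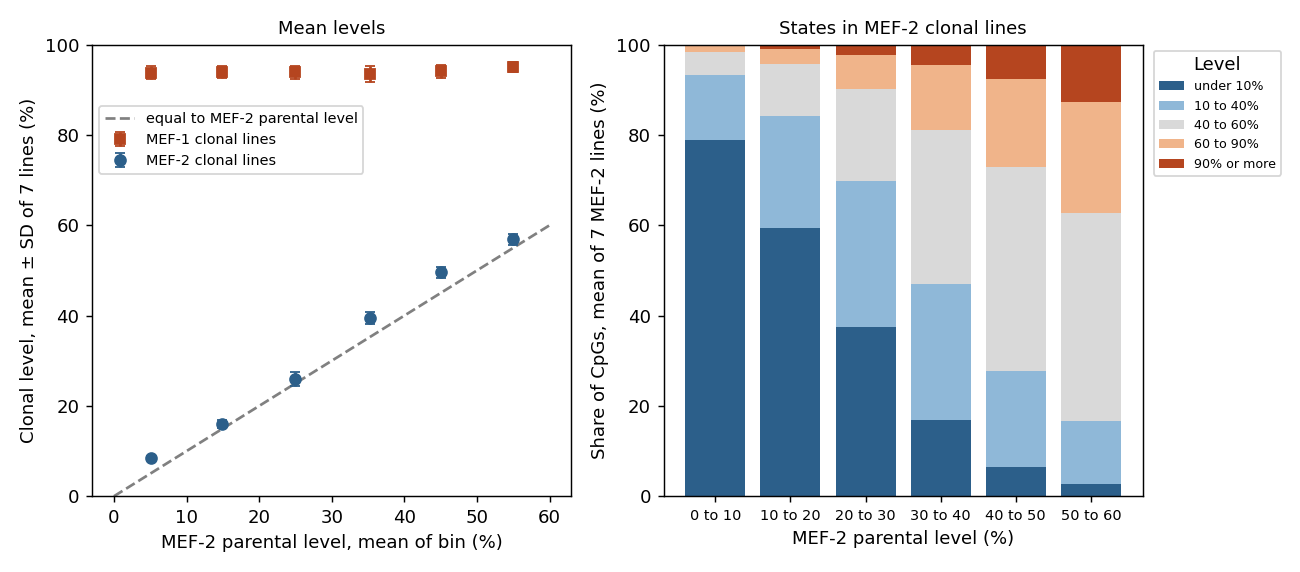
Left, clonal mean level (%, mean ± SD of 7 lines) against the mean MEF-2 parental level (%) of 6 bins of CpGs, squares for MEF-1 and circles for MEF-2 lines, the dashed line marking equality with the MEF-2 parent. Right, the share of CpGs (%, mean of 7 MEF-2 lines) in each range of level for each bin; the share under 10% goes from 78.9% in the lowest bin to 2.71% in the highest.

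The 7 MEF-2 lines differed among themselves at 21018 of the CpGs (73.2%, background 36.8%), by a chi-square test of reads over lines adjusted over the whole table. The same test called the 7 MEF-1 lines different at 7778 (27.1%, background 27.6%). These backgrounds were not matched on level, so the shares are not like for like. Over all CpGs of sufficient depth, MEF-2 lines had on average 43.2% under 10% and 29.5% at 90% or more. Over the selected CpGs they had 16.7% and 7.98%. The families also lay at unlike levels at the selected CpGs, with means of 44.5% in MEF-2 and 94.3% in MEF-1 lines. The chi-square test called the MEF-1 lines different at 15.1% of all CpGs at 90% or more in the MEF-1 parent. Of CpGs at 90% or more in both parents, 10.9% were so called. With reads thinned to 10 per CpG in each line, the shares of the selected CpGs were 31.9% for MEF-2 and 9.20% for MEF-1 lines. At the CpGs of the opposite kind, with all reads, the MEF-1 lines differed at 55.2% and the MEF-2 lines at 28.1%. Reads are taken as independent in this test, and duplicate reads may make its p-values too small. At 856 CpGs (2.98%) all 7 MEF-2 lines were under 10%, and at 426 of these all 7 MEF-1 lines were also at 90% or more. At 419 (1.46%) all 7 MEF-2 lines lay at 40 to 60%. At 18819 (65.5%) no MEF-2 line reached 90%, at 6128 exactly 1 line did and at 1507 (5.25%) 3 or more did. Lines under 10% and lines at 90% or more occurred together at 1389 CpGs (4.84%).

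Between-line variance in excess of read sampling was 0.152 of its largest possible value in the MEF-2 lines and 0.138 in the MEF-1 lines, where 0 means equal levels and 1 means that each line is at 0 or 100%. Leaving out a line gave 0.147 to 0.160 and 0.132 to 0.144. Values within each range share most of their lines, so the ranges do not measure the spread between clones. Whether the families differ in this share was not tested. At parental levels of 40 to 50% both families had 0.140. In the MEF-2 lines the share was 0.229 at CpGs with a parental level of 10 to 20% and 0.134 at those of 50 to 60%.

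A complete split of the MEF-2 lines was rare. Among 4406 CpGs with no MEF-2 line at 40 to 60%, the set of 4 lines most often at 60% or more while the other 3 were under 40% was lines 2, 3, 4 and 7, at 17 CpGs. The next of the 35 possible sets had 8 and the median set had 2. The reverse, with lines 1, 5 and 6 at 60% or more and lines 2, 3, 4 and 7 under 40%, was also found at 17 CpGs, and the next set of 3 lines had 11. The stricter split, with 3 or 4 lines at 90% or more and the rest under 10%, occurred at 2 CpGs, both with lines 2, 3, 4 and 7 high. One lies in a coding exon of Ttc39a at chr4:109421362, where lines 1 to 7 had 2.17, 94.6, 97.1, 97.4, 3.12, 9.09 and 97.6%. The MEF-1 lines had 82.1 to 96.9% there with a median of 91.9%, and the CpG was not called (adjusted p 0.155). The other is intergenic at chr5:37967309, where the lines had 0, 100, 100, 95.8, 7.69, 7.50 and 96.9%, and MEF-1 lines 56.2 to 100% with a median of 92% (adjusted p 0.3). Across all selected CpGs, Pearson's r between MEF-2 lines 2, 3, 4 and 7 was 0.52 to 0.63, against 0.43 to 0.47 for pairs with or among lines 1, 5 and 6. These r are across CpGs, which are not independent and share the choice by parental level.

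Levels under 60% in the MEF-1 lines were more frequent in some lines than in others. A level under 60% in at least 1 MEF-1 line was seen at 3901 CpGs (13.6%) and in all 7 at none. Single lines had 183 to 1463 such CpGs, with 295 in line 1, 214 in line 4 and 183 in line 5, against 1463, 1269, 1131 and 1185 in lines 2, 3, 6 and 7. The same lines stood apart at CpGs at 90% or more in both parents, where 0.095 to 0.137% were at 40 to 60% in lines 1, 4 and 5 and 0.619 to 0.804% in the other 4, so the split is not particular to the selected CpGs. Lines 2, 3 and 7 were all under 60% at 334 CpGs, and lines 1, 4 and 5 at 19. With the remaining lines at 90% or more, the set of lines 2, 3 and 7 was under 60% at 110 CpGs and no other set of 3 lines at more than 4. Line 6 was the only line under 60% at 785 CpGs. Pearson's r over the selected CpGs was 0.46 to 0.52 among lines 2, 3 and 7, 0.28 to 0.32 among lines 1, 4 and 5 and 0.18 to 0.25 for the other pairs.

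The selected CpGs lay more often in promoters and between genes than CpGs methylated in both parents, but less often in promoters than all CpGs of sufficient depth, of which 18.4% were in promoters with 6.67 other CpGs within 100 bp. Of the 28714, 9.48% (2721) were in a promoter, meaning up to 1000 bp before a start of a protein-coding transcript, 8.18% in coding exons, 3.45% in untranslated exon parts, 5.84% in other exons, 36.7% in introns and 36.3% were intergenic. Of the 213605 CpGs at 90% or more in both parents, 4.42% were in promoters, 10.7% in coding exons, 46.1% in introns and 27.7% were intergenic. CpG density differed little, with 3.85 other CpGs within 100 bp on average against 4.03. No other CpG lay within 35 bp at 34.7% of the selected CpGs and at 28.5% of those methylated in both. The base before the C and the base after the G were both A or T at 22.2% and 18.3%, and repeats masked in the reference held 4.93% and 5.25%. The 17699 CpGs of the opposite kind had nearly the same location, with 9.50% in promoters and 33.6% intergenic. Neighbouring CpGs are not independent, and these shares are given without a test.

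Promoter CpGs had the lowest MEF-2 levels. MEF-2 lines had a mean of 40.2% ± 0.755 there, against 45.8% ± 1.23 in introns and 43.5% ± 1.24 between genes (SD, n = 7), and the MEF-2 parental means, which the rule used, were 38.5, 42.6 and 41.8%. MEF-1 lines had 95.3% ± 0.822, 94.3% ± 1.47 and 93.9% ± 1.31. All 7 MEF-2 lines were under 10% at 5.66% of promoter CpGs and at 2.59% of intergenic ones. The selected CpGs were spread over all 16 chromosomes of the table, from 7.54% of the CpGs at 90% or more in the MEF-1 parent on chromosome 16 to 10.4% on chromosomes 7 and 9, and 86.9 to 91.5% of them per chromosome were called.

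Nearby CpGs with too few parental reads for the rule gave values that played no part in the choice. There were 3594 such CpGs within 100 bp of a selected one. MEF-1 lines had a mean of 69.2% ± 0.527 and MEF-2 lines 57.0% ± 0.843 at them (SD, n = 7). Of these CpGs, 1012 (28.2%) were called higher in the MEF-1 lines and 270 (7.51%) higher in the MEF-2 lines. Among the 137639 CpGs of low parental depth elsewhere, the shares were 8.97% and 6.78%. Their mean levels were 36.9% in the MEF-1 and 35.6% in the MEF-2 lines, far lower than near the selected CpGs, so the shares are not like for like. The median difference near the selected CpGs was 4.74 points.

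Most selected CpGs stood alone. Consecutive CpGs of the table that were all selected, with steps of at most 200 bp, formed 25449 runs, of which 22857 held 1 CpG, 2143 held 2 and 449 held 3 or more. The 449 runs held 1571 CpGs (5.47%), of which 96.6% were called higher in MEF-1, beside 89.7% of all selected CpGs. Their MEF-2 parental mean was 34.2%, against 41.8% over all selected CpGs. These had 7.08 other CpGs within 100 bp, a MEF-2 clonal mean of 35.1% and a MEF-1 clonal mean of 96.2%. All 7 MEF-2 lines were under 10% at 10.8% of them.

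The 12 runs described are the 10 with 7 or more CpGs and, of 10 runs tied at 6, the 2 with the longest span. Of these 12, 3 lay in Zic4, which encodes a zinc-finger transcription factor of developmental patterning. The run of 12 CpGs in a coding exon at chr9:91379138-91379315 had MEF-1 lines at 96.6 to 99.6% with a median of 97.5%, and MEF-2 lines at 0.66 to 3.99% with a median of 2.17%. A run of 9 in the same exon region at chr9:91378845-91378973 had 98.0 to 99.4% and 0.626 to 3.50%. In an intron at chr9:91383433-91383636 the MEF-2 lines were at 16.3 to 40.6% with a median of 32.8% over 9 CpGs, and 7 of the 9 differed among these lines. Every CpG of the 3 runs was called, with adjusted p from 1.6e-08 to 8.45e-05.

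The longest run held 17 CpGs at chr13:119487358-119488002, in the promoter of Tmem267, which encodes a transmembrane protein, and in the transcript of 3110070M22Rik. MEF-1 lines had 91.8 to 99.0% with a median of 97.9%, and MEF-2 lines 6.60 to 12.6% with a median of 7.75%. The families did not overlap at any of the 17, although a 40-base window in the middle of the run occurs 2 times in the reference. In an intron of Ahi1, which encodes a protein of the primary cilium, the 12 CpGs at chr10:20954420-20954504 had MEF-1 lines at 93.4 to 98.3% and MEF-2 lines at 1.38 to 3.66%. The 9 CpGs in an intron of Reep3, which encodes a protein shaping the endoplasmic reticulum, had 94.0 to 100% and 4.12 to 16.3% at chr10:67083704-67083963.

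In 5 further runs the MEF-2 means were intermediate. Sap18b, a copy of the gene for a subunit of a histone deacetylase complex, held runs of 9 and 7 in its coding exon at chr8:95825531-95825583 and chr8:95825438-95825501, with MEF-2 lines at 35.8 to 56.2% and 25.3 to 59.6%. Windows of 40 bases in both runs occur 2 times in the reference, so reads of a near-identical copy may be included and these levels are uncertain. The 7 CpGs in the promoter of Mblac1, a metallo-beta-lactamase domain protein, had MEF-2 lines at 48.7 to 64.8% with a median of 52.9% and MEF-1 lines at 94.8 to 98.9% (chr5:138193962-138194020). In Bmpr1b, which encodes a type I receptor for bone morphogenetic proteins, 7 CpGs in the 5′ untranslated region at chr3:141982066-141982140 gave the widest spread of these runs. Its MEF-2 lines 1 to 7 had 92, 78.3, 48.2, 56.9, 71.5, 87.5 and 52.0%, and the MEF-1 lines 98.1 to 99.5%. An intron of Mapk10, which encodes the kinase JNK3, had 6 CpGs with MEF-2 lines at 29.0 to 51.8% (chr5:103132936-103133167).

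The last of the 12 lay at Gata3, a transcription factor of T cells and several epithelia, overlapping the transcripts 4930412O13Rik and 9230102O04Rik (chr2:9883235-9883391). MEF-2 lines had 8.01 to 27.8% with a median of 18.8%, and MEF-1 lines 91.8 to 98.8% with a median of 97.5%. Of its 6 CpGs, 5 were called.

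**Figure D3:**
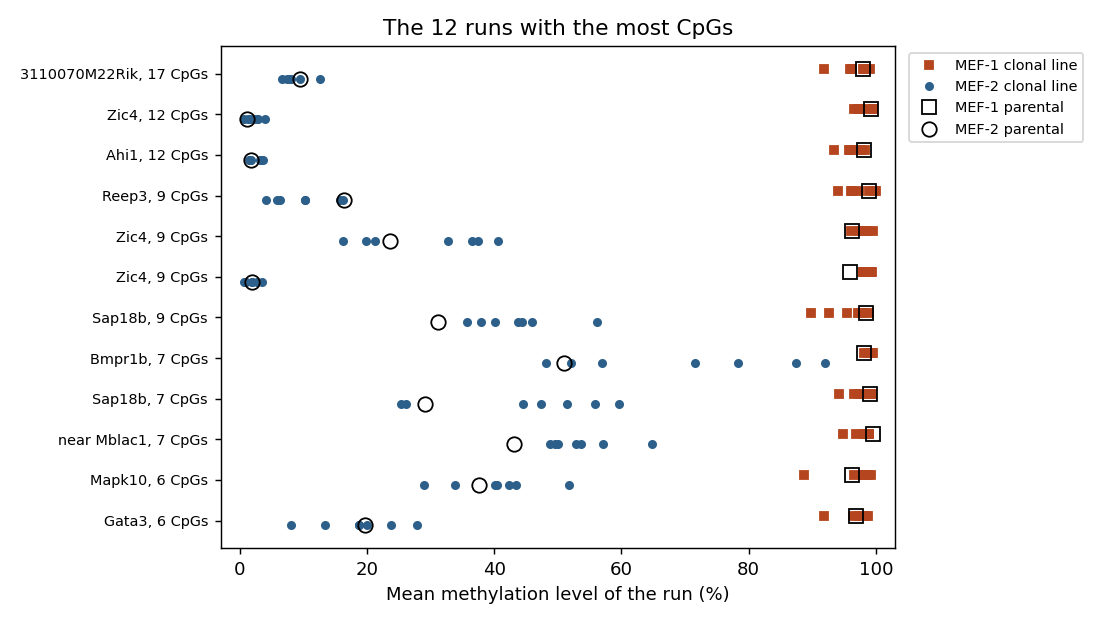
Mean methylation level (%) of 12 runs, the 10 with 7 or more selected CpGs and the 2 of 6 CpGs with the longest span, in each MEF-1 clonal line (filled squares), each MEF-2 clonal line (filled circles) and the parental libraries (open symbols), labelled by the first overlapping or the nearest gene. MEF-1 lines lie between 88.7 and 100%, while MEF-2 lines lie below 20% in 5 runs and reach 92% in Bmpr1b.

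Of 15335 protein-coding genes with a CpG of sufficient depth in the transcript or the 1000 bp before a start, 7559 held at least 1 selected CpG, 2382 at least 3 and 145 at least 10. The largest number, 186, fell in Gm20388, a predicted gene that spans 7597 CpGs of the table, at 2.88% of its CpGs of sufficient depth. Zic4 came next with 68, which was 32.7% of its CpGs of sufficient depth and 78.2% of those at 90% or more in the MEF-1 parent, beside 8.48% over all protein-coding genes.

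All 68 CpGs of Zic4 were called higher in the MEF-1 lines, beside 89.6% of the selected CpGs in all genes. Their MEF-2 parental mean was 6.42%. Of all selected CpGs with a MEF-2 parental level under 10%, 99.6% were called, so the full count is not particular to Zic4. The MEF-1 lines had a mean of 97.9% ± 0.66 and the MEF-2 lines 7.63% ± 2.25 (SD, n = 7). MEF-2 lines 1 to 7 had 9.87, 8.71, 5.51, 8.14, 5.13, 5.49 and 10.6%, all far below the lowest MEF-1 line at 96.6%. All 7 MEF-2 lines were under 10% at 45 of the 68, and all 7 MEF-1 lines at 90% or more at 59. The gene lies at chr9:91362413-91389348 on the plus strand, with 6 annotated starts, and the selected CpGs began 4838 bp and ended 21222 bp after the first start. Near a start, from 1000 bp before to 500 bp after, 30 CpGs had MEF-2 lines at 2.89 to 5.80%. The locus also held 14 CpGs of the opposite kind.

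**Figure D4:**
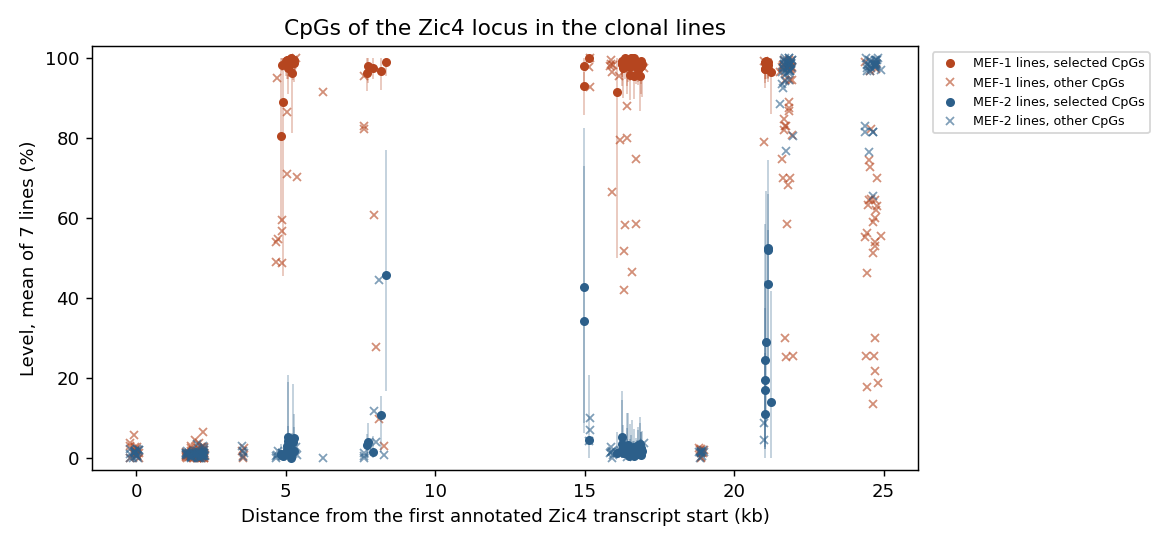
CpGs of the Zic4 locus by distance from the first annotated transcript start (kb), with the mean level (%) of the 7 MEF-1 and the 7 MEF-2 lines; filled circles are the 68 selected CpGs with bars from the lowest to the highest line, and crosses are other CpGs of the table. CpGs at the first start are low in both families, and the selected CpGs separate the families between 4838 and 21222 bp.

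Hox genes encode homeobox factors that set position along the body axis. Over the 38 Hox genes measured, 16 held a selected CpG and 10 held at least 3. The 103 CpGs were 39.9% of the Hox CpGs at 90% or more in the MEF-1 parent (8.48% over all protein-coding genes) and 3.58% of the Hox CpGs of sufficient depth (2.34% over all), and 102 were called higher in the MEF-1 lines (99.0%, beside 89.6% of the selected CpGs in all genes). Their MEF-1 mean was 96.0% ± 0.978 and their MEF-2 mean 23.0% ± 1.42 (SD, n = 7). Their MEF-2 parental mean was 33.5%, against 41.8% over all selected CpGs, and the share called was higher at lower parental levels. In the same genes 21 CpGs were of the opposite kind. By cluster, 49 lay in Hox A genes, 41 in Hox B, 8 in Hox C and 5 in Hox D, with MEF-2 means of 26.5% ± 2.62, 20% ± 3.08, 27.8% ± 7.34 and 5.58% ± 4.64.

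Within the clusters, overlapping transcripts share CpGs. Hoxa3 held 46, as did the overlapping predicted gene Gm28308 with equal levels, with MEF-2 lines at 21.8 to 29.0% (median 25.1%) and MEF-1 lines at 95.7 to 98.2%. Hoxa6 held 17 with a MEF-2 mean of 12.5% ± 3.39, and Hoxa5 14, of which 11 near a start had MEF-2 lines at 20.6 to 40.4% and MEF-1 lines at 90.8 to 96.7%. Hoxb3 held 24, with MEF-2 lines at 13.8 to 20.5% against 37.2% in their parental library, and Hoxb4 held 9 with a MEF-2 mean of 20.3% ± 8.68.

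Among transcription factors of limb and position, 24 of 39 genes held a selected CpG. Of their 135 CpGs, 131 (97%, beside 89.6% in all genes) were called. Zic4 alone held 68 of the 135, all called. The MEF-2 parental mean of the 135 was 24%, against 41.8% over all selected CpGs. Apart from Zic4, Lmx1b, which patterns the dorsal limb, had 13 CpGs with MEF-1 lines at 94.2% ± 2.94 and MEF-2 lines at 25% ± 4.99 (SD, n = 7). Tbx1, a T-box factor of the pharynx, had 7 with MEF-2 lines at 34.1% ± 7.41.

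Regulators of cartilage, bone and blood were led by Runx1, a transcription factor required for blood stem cells that is also expressed in mesenchyme. Runx1 held 36 selected CpGs, 34 of them called, with MEF-1 lines at 94.4 to 98.8% (median 96.9%) and MEF-2 lines at 17.7 to 25.3% (median 20.4%). At the 9 near a start, MEF-2 lines had 1.33 to 4.94% and MEF-1 lines 93.4 to 100%. Runx3 held 11 with MEF-2 lines at 36.0% ± 6.26, Sox6 held 9 and the cartilage matrix gene Comp 7. Over the 15 genes of cartilage and bone, 10 held a selected CpG and 76 of 83 CpGs (91.6%) were called, a share near the 89.6% of all genes.

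Over the Wnt pathway 24 of 38 genes held a selected CpG. The 80 CpGs had a MEF-2 parental mean of 32.2% (41.8% over all selected CpGs), and 77 (96.2%, beside 89.6% in all genes) were called. Of these, 31 lay in Wnt6, which encodes a secreted ligand, and all were called, with MEF-2 lines at 8.88 to 21.1% and MEF-1 lines at 96.4 to 99.0%. Over TGF-beta and BMP signalling 26 of 36 genes held one and 62 of 67 CpGs (92.5%, near the 89.6% of all genes) were called, Bmpr1b leading with 8. In Notch signalling 6 of 13 genes held one and 11 of 12 CpGs were called. Fgfr2, a receptor for fibroblast growth factors, held 51, of which 39 were called (beside 89.6% in all genes). MEF-2 lines were at 42.5 to 49.9% and MEF-1 lines at 89.6 to 93.8%. Its annotation spans 2675 CpGs of the table, at chr7:130162451-133123350. Selected CpGs were counted over this whole interval, so some of them may lie in other genes. The 51 were 2.12% of its CpGs of sufficient depth and 7.49% of those at 90% or more in the MEF-1 parent. Over all protein-coding genes these shares were 2.34% and 8.48%.

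The endoderm list, made of lineage factors, had 30 selected CpGs in 6 of 9 genes. They were 22.2% of the CpGs of these genes at 90% or more in the MEF-1 parent (8.48% over all protein-coding genes), and 93.3% of them were called, near the 89.6% of all genes. Hnf4a held 7, of which 5 were called, with MEF-2 lines at 46.4% ± 8.38. Foxa2 and Foxa3 held 6 each, with MEF-2 lines at 28.6% ± 7.67 and 32.7% ± 5.69. Neural factors had 9 in 6 of 15 genes, all called, muscle regulators 11 in 3 of 6 genes with 90.9% called, and blood lineage genes 13 in 6 of 8 genes with 69.2% called, beside the same 89.6%.

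The lists of fibroblast, adipocyte, cell cycle and methylation genes are given by the same share. Of their CpGs at 90% or more in the MEF-1 parent, the selected ones were 5.74% for fibroblast matrix and identity (14 CpGs, 12 called), 6.70% for collagens (46, 40 called), 5.43% for the methylation machinery (14, 11 called), 7.57% for adipocyte regulators (39, 35 called) and 7.73% for cell cycle control and senescence (16, 15 called), beside 8.48% over all protein-coding genes. The shares called were 78.6 to 93.8%, around the 89.6% of all genes. By share of CpGs of sufficient depth the order was another, with 3.31% for adipocyte regulators and 1.73% for fibroblast genes beside 2.34% over all, and nothing particular to these lists is read from it. Pdgfra, a growth factor receptor of mesenchyme, had 3, all near a start, where 86 of its CpGs were of sufficient depth. At the 3, MEF-2 lines had 6.65% ± 5.74 and MEF-1 lines 97.7% ± 1.16. They were 2.31% of the Pdgfra CpGs of sufficient depth, near the 2.34% over all protein-coding genes. Dnmt3b, Tet2 and Zbtb38 held 3 each. Expression was not analysed here.

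**Figure D5:**
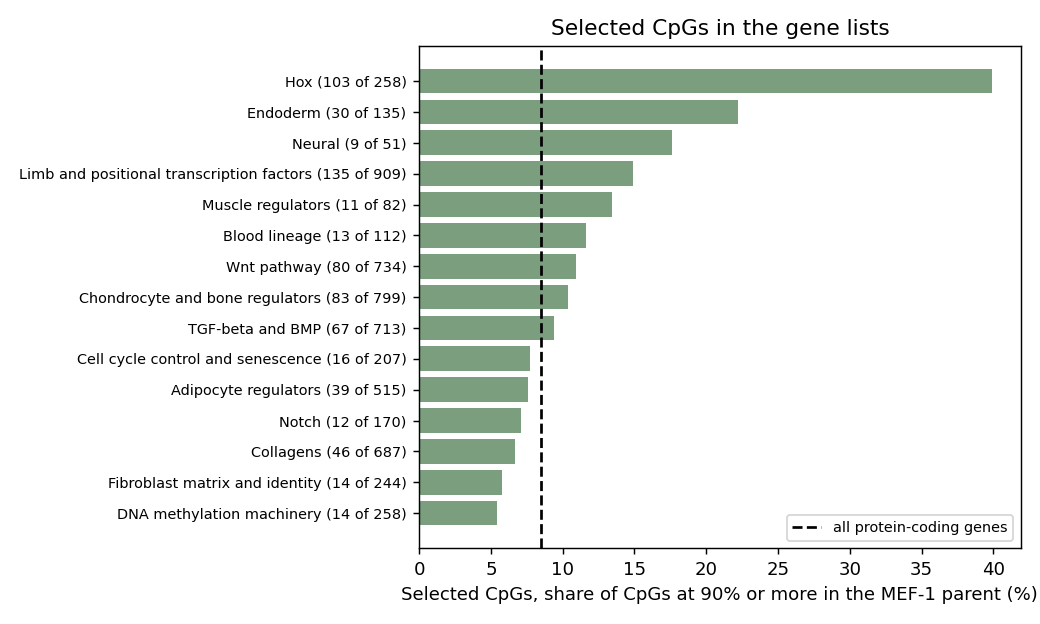
For each gene list, the bar gives the selected CpGs as a share (%) of the CpGs at 90% or more in the MEF-1 parent, with both counts in brackets, and the dashed line gives all protein-coding genes (8.48%). Hox genes have the longest bar (39.9%) and the methylation machinery the shortest (5.43%). By share of CpGs of sufficient depth endoderm is highest (4.73%) and neural lowest (0.741%), with Hox at 3.58%. In the limb and positional list, 68 of the 135 selected CpGs lie in Zic4. No test was made of these shares, which the parental levels set.

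The other genes with the most selected CpGs were of mixed function, and their counts called are to be read against the 89.6% called in all genes. Camta1, a calmodulin-binding transcription activator, held 37 (34 called, MEF-2 lines 36.0 to 44.4%), the calcium pump gene Atp2b2 32 (27 called, 44.0 to 55.1%), Gata3 31 (27 called, 17.2 to 34.4%), the predicted gene Gm37240 25 (21 called, 45.3 to 61.7%) and Tshz2, a zinc-finger factor, 22 (19 called, 42.1 to 52.2%). 4930412O13Rik held 23 and 9230102O04Rik 20, partly the CpGs of Gata3, with MEF-2 lines at 8.99 to 20.2% and 9.71 to 23.4%. Pdzd2, a PDZ domain protein, held 20 (17 called), Ahi1 and the homeobox gene Cux2 19 each (all called), and the integrin gene Itga9 and the dynein gene Dnah8 18 each (17 and 13 called). In all of these the lowest MEF-1 line, at 84.7% or more, was above the highest MEF-2 line. Line means over all selected CpGs were likewise apart, at 93.1 to 95.8% in MEF-1 and 42.1 to 45.5% in MEF-2. The separation is therefore not particular to these genes.

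Near transcript starts, 2405 genes held a selected CpG and 262 held at least 3. After Zic4 (30), Tmem267 (17), Sap18b (16) and Hoxa5 (11), those with the most were BC048507, the potassium channel gene Kcng1, the carboxypeptidase gene Agbl2 and Runx1 with 9 each, and 9230102O04Rik and the glutathione transferase gene Gstm5 with 8. Bmpr1b, 3110070M22Rik, Synj2 and Syngr1 also had 8, with MEF-2 lines at 48.4 to 93%, 0.694 to 4.53%, 1.89 to 27.2% and 8.78 to 18.3%. In the genes from BC048507 to Gstm5 the MEF-2 lines lay at 22.1 to 39.6%, 28.5 to 52.4%, 20.1 to 37.4%, 1.33 to 4.94%, 2.36 to 11.6% and 7.18 to 19.4%, in that order. In these 6 genes MEF-1 lines were at 89.5% or more.

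Single CpGs were picked as the called ones with the largest difference of clonal means at which the families did not overlap. Their full split by family and their call were thus conditions of the choice. At chr16:92698415 in an intron of Runx1, 1087 bp before the nearest start, all 213 reads of the MEF-1 lines were methylated and none of the 280 reads of the MEF-2 lines, so that the level there can be up to 1.07% (adjusted p 2.1e-08). At chr9:91367581 in an intron of Zic4, all 118 reads were methylated in the MEF-1 lines and none in the MEF-2 lines, a count that leaves room for up to 2.01% (adjusted p 1.4e-07). Both had 100% in every MEF-1 line and 0% in every MEF-2 line, and the MEF-2 parental levels were 16.3% and 0%. At chr1:132192036, in an intron of Lemd1, the MEF-2 parental level was 45.0% over 20 reads, while none of the 140 reads of the 7 MEF-2 lines was methylated (up to 2.14%) and the MEF-1 lines had 95.2 to 100%. The others were chr5:23844641 in the promoter of Tomm7, chr10:20954497 in Ahi1 and the intergenic chr2:158348313, with MEF-2 means of 0.408, 0 and 0.571%. These limits cover counting error only.

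Just inside and outside the limits of the rule the clonal levels were alike. The 4076 selected CpGs with a MEF-1 parental level of 90 to 92% had a MEF-1 clonal mean of 90.7%, and the 3107 left out at 88 to 90% had 88.6%. The 2333 with a MEF-2 parental level of 58 to 60% had a MEF-2 clonal mean of 59.6%, and the 3183 left out at 60 to 62% had 61.5%. Nearest the 90% limit inside, chr9:53975980 and chr1:156092026 had a MEF-1 parental level of 90%, and outside it chr7:16647754 and chr2:177249172 had 89.9%. Nearest the 60% limit inside, chr4:88800966 and chr1:39179804 had MEF-2 parental levels of 59.9 and 59.8%, and outside it chr6:37803415 and chr9:122733067 had 60%.

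Over the series, libraries held between 59243669 and 90633091 calls, 1 call being 1 read over 1 CpG, and the median depth of a library at the selected CpGs was 29 to 44 reads. MEF-2 line 3 had the most positions covered (5500212, against 4519324 to 5049749 in the other libraries) but fewer calls than most. Its levels stood apart at the selected CpGs and elsewhere. Of the CpGs at 90% or more in both parents, 90.7% were at 90% or more in line 3. The other MEF-2 lines had 92.9 to 93.8%. Without line 3, 87.1% of the selected CpGs were called higher in MEF-1. Chromosomes 12, 18, 19, X and Y were not in the table. Without MEF-1 lines 1, 4 and 5, which kept these CpGs most fully methylated, 73.9% of the CpGs were called higher in MEF-1 and 17.1% differed among the MEF-1 lines left.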

How the data were processed

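Methylation was measured by target capture bisulfite sequencing in 16 libraries, 1 for each of 2 parental lines and 7 clonal lines per family. The authors deposited counts of methylated and unmethylated reads per CpG, for each library and in a table of the 1203687 CpGs that no library covered by fewer than 10 reads. Per the labels and the study's methods, reads were trimmed with Trim Galore (version 0.6.0), aligned to mm10 with Bismark, kept at a mapping quality of at least 10, and calls of both strands were combined. Removal of PCR duplicates is not given in the sources used here. The reads carry no molecular identifiers, so limits from counts cover counting error only. The authors' fidelity scores and regions were not used.

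Levels were computed from the counts with Python 3.11.15, numpy 2.4.6, scipy 1.17.1, pandas 2.3.3 and numba 0.67.0, and figures drawn with matplotlib 3.10.9. The family difference was tested per CpG over the 14 clonal lines with a quasi-binomial logistic model, dispersion not below 1, and lines within a family with a Pearson chi-square of reads. Both were fitted to all 1203687 CpGs and adjusted by the Benjamini-Hochberg method, with a call at an adjusted p under 0.05. Both were run on simulated data. For the family test, the simulated spread between lines was equal in both families. It was smaller than the variance share at the selected CpGs (0.152 in MEF-2 and 0.138 in MEF-1 lines). Error rates at the real spread were thus not checked. limma 3.58.1 in R 4.3.3 was an alternative. The clonal lines are separate cells of 1 culture per family. The p-values of the family test therefore rest on the spread between clones and not between embryos. Those of the chi-square set the lines against read sampling only. Genes are the protein-coding genes of GENCODE vM21 and sequence is GRCm38. Of the CpGs in the table, 113 were not at a CpG of this reference.

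The members and gene lists were chosen with earlier results of these data known. The genes named are the 20 with the most selected CpGs, the 10 with the most from 1000 bp before to 500 bp after a start, and leading members of each list. Also named are the 12 longest runs and the called CpGs of largest difference without overlap of the families. Alternatives changed the depth limits, the parental limits, the lines used, the step within runs, the test and the number of reads per CpG. 1 gene is not reported here.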

Additional observations from a re-analysis of the deposited data

Results flagged for a closer look

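Each of 113 groups of 7 clonal lines was checked for a line far from the other 6, and 12 had one, where chance gives about 1 in 20 groups. MEF-2 line 3 accounted for 4 of them, which all come from 1 distribution of levels, and 4 more are single CpGs where 1 discordant read is enough, so that rate does not apply to this count. Its mean level over the selected CpGs was 42.1%, against 44.2 to 45.5% in the other MEF-2 lines. It had 26.3% of the CpGs at 10 to 40% (18.3 to 20.9% in the others), 21.4% at 60 to 90% (16 to 18.2%) and 3.31% at 90% or more (7.90 to 9.44%). Line 3 also stood apart over all CpGs of sufficient depth, so this is not particular to the selected CpGs. There it had 11% at 10 to 40% (7.85 to 8.75% in the others) and 27.2% at 90% or more (29.6 to 30.1%).

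In genes and runs, the 30 CpGs near a start of Zic4 had 5.80% in MEF-2 line 7, against 2.89 to 4.03% in the others. The 9 CpGs near a start of Agbl2 had 89.5% in MEF-1 line 1 (97.3 to 99.3% in the others), the Mapk10 run 88.7% in MEF-1 line 2 (96.6 to 99.2%) and the Gata3 run 91.8% in MEF-1 line 1 (96.4 to 98.8%).

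At single CpGs the other 6 lines were at 0 or 100%. The level was 2.86% in MEF-2 line 5 at chr5:23844641, 96.4% in MEF-1 line 5 at chr10:20954497, 4.00% in MEF-2 line 4 at chr2:158348313 and 95.2% in MEF-1 line 7 at chr1:132192036.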

How the results depend on the processing

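Of 161 alternative values, 20 moved. For shares of CpGs called and counts of runs, moved means by over 1.5 times, or from 0% to any larger share. For levels it means by over 1 SD of lines. None reversed, but only the mean difference could, because shares and counts cannot change sign. The share of CpGs called higher in MEF-1 (89.7%) was 73.9% without MEF-1 lines 1, 4 and 5, 92.3% with limma, 83.9% with reads thinned to 10 per CpG and 86.3 to 88.1% leaving out a line. The share called higher in MEF-2 (0%) was 0.00348% with limma, with thinning and without MEF-1 lines 1, 4 and 5, and 0 to 0.0104% leaving out a line. With MEF-2 parental levels under 40%, the mean difference was 67.6 points (49.8 as reported, 49.4 to 50.0 leaving out a line), MEF-2 levels were 40.7% under 10%, 21.3% at 40 to 60% and 2.49% at 90% or more, and runs of 3 or more numbered 113. A parental minimum of 30 reads gave 280 such runs, and 20 reads in every library gave 40.9% of MEF-2 levels at 40 to 60%. Thinning gave 12.7% under 10%, 25.7% at 40 to 60% and 10.5% at 90% or more. Thinned reads called 9.20% of CpGs different among MEF-1 lines and 31.9% among MEF-2 lines, so the counts of heterogeneous CpGs depend on depth. Leaving out a line gave 22.8 to 24.6% and 66.8 to 70.3%, and without MEF-1 lines 1, 4 and 5 the first was 17.1%. Leaving out a line gave MEF-2 levels of 16.7 to 16.9% under 10%, 36.9 to 38.0% at 40 to 60% and 7.73 to 8.75% at 90% or more.

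Clone numbers recur in both families. Deviations of same-numbered lines correlated at -0.0043 to 0.0035 across CpGs, so the numbers do not pair the lines. With a replicate block 80.7% were called higher in MEF-1 and 0.00348% higher in MEF-2.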

Other observations

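At a few of the selected CpGs every MEF-2 clonal line lay 20 points or more from the MEF-2 parental library, on the same side of it. All 7 lines were at least 20 points below it at 138 CpGs (0.481%), with a parental mean of 38.6% and a clonal mean of 5.61% ± 0.306 (SD, n = 7). The MEF-1 lines had 93.4% ± 1.91 there. Hoxb3 held 4 of them, with 43.1% in the parental library and 3.50 to 11.3% in the lines, and Itga9 held 3, with 46.1% and 0 to 14.2%. At 96 CpGs (0.334%) all 7 lines were at least 20 points above the parental library, with a parental mean of 44.2% and a clonal mean of 84.2% ± 1.01. The parental level chose these CpGs and was measured in 1 library, so no test was made. The like shares over all CpGs and over those of the opposite kind were not counted. Whether 0.481% and 0.334% are unusual thus cannot be said.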
